A study of Homo sapiens with 20 samples.

Results

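STAG1 ChIP-seq in M14 cells was examined with and without knockdown of STAG2. M14 is an established human melanoma cell line, used in the first set with a doxycycline-inducible shRNA against STAG2. The 4 STAG1 antibody peak lists, 2 from WT cells and 2 from STAG2-KD cells, were selected by antibody from the 16 lists and 20 samples of the series. In the first set WT cells were cultured without doxycycline and STAG2-KD cells with it for 5 d, and both carried the shRNA and were kept under puromycin selection. The labels of the second set give the cell line, antibody and genotype and no treatment, so its WT and STAG2-KD libraries rest on title and genotype. Titles ending in 2 make up set 2, and unnumbered titles set 1. WT was compared with STAG2-KD within each set, because the labels give a different lysis, size selection (beads in set 1, gel in set 2) and list of software for each set. The same lot of STAG1 antibody was used throughout. That the labels name 1 shRNA line limits what WT and STAG2-KD stand for, and nothing in the labels says that the sets came from separately grown cultures. Peak lists hold no expression, so marker genes of the cell line were not checked.

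Cohesin is a ring of SMC1A, SMC3 and RAD21 that folds DNA into loops, and it carries either STAG1 or STAG2 as a further subunit. CTCF is the zinc finger protein at which sliding cohesin tends to stop, so that cohesin ChIP-seq peaks often lie on CTCF motifs. In many cell types STAG1 cohesin sits mainly at CTCF sites, whereas STAG2 cohesin is also found at enhancers and promoters without CTCF.

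The DNA under STAG1 sites at the extremes of the comparison is shown first, as stretches centred on the summit of the strongest of the 4 lists, plus strand, hg19. Capitals mark the CTCF core CCNNNAGNNGGC, read on either strand, where N is any base. The first pair had STAG1 peaks in all 4 lists and are those of the 5 largest rises in rank, described with the results, that hold a core in this window.
KCNIP1 intron, ranked higher, chr5:169838182-169838282: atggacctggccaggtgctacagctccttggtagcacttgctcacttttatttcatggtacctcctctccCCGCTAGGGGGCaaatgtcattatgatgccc
RASSF8 intron, ranked higher, chr12:26154587-26154687: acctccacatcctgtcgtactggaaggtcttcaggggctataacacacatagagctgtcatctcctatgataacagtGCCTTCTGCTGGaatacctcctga
The next window is from a site ranked lower after knockdown, and the ones after it are from sites found in both STAG2-KD lists and neither WT list (gained), or the reverse (lost). None of the 5 stretches holds the core, though the SH3PXD2A site has one in the wider 201-base window used for the motif counts.
ATXN7L1 intron, ranked lower, chr7:105471115-105471215: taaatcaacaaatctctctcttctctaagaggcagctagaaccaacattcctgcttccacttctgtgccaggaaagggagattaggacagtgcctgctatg
TPTE2 intron, gained, chr13:20034358-20034458: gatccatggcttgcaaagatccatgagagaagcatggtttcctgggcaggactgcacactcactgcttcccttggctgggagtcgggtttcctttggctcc
NDC1 intron, gained, chr1:54287233-54287333: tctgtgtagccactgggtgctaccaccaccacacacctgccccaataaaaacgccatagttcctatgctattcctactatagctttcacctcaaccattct
SH3PXD2A intron, lost, chr10:105512697-105512797: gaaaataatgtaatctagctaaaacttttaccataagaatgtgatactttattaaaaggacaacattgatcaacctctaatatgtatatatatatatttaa
Intergenic site 33.1 kb from a PTPN1 start, lost, chr20:49093621-49093721: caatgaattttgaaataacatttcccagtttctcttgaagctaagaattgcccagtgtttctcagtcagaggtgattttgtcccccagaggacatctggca

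STAG2-KD lists held more STAG1 peaks than WT lists in both sets. On chromosomes 1 to 22 and X, set 1 had 63479 peaks in WT and 85527 in STAG2-KD, a difference of 34.7%. Set 2 had 98437 peaks in WT and 104628 in STAG2-KD, a difference of 6.29%. The STAG2 lists went from 79048 to 58418 peaks in set 1 and from 118984 to 106135 in set 2. The CTCF lists went from 86248 to 88575 and from 122299 to 115435, so peak number alone does not measure the knockdown. The mean log2 ratio of STAG1 peak numbers was 0.26 ± 0.24 (SD, n = 2 sets). A two-sided exact permutation test of 2 against 2 libraries gave p = 0.667, and 0.333 is the smallest p it allows.

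The depth recovered from the lists was 46.7 M reads for WT and 40.2 M for STAG2-KD in set 1, and 71.7 M and 65.1 M in set 2, within 20.2 to 71.7 M over the 16 libraries. The WT library was thus the deeper of each pair before scaling, and the lists with more peaks came from fewer reads. After the scaling to input that the peak caller applies, 38.6 M and 63.0 M reads' worth of WT signal remained, slightly below the 40.2 M and 65.1 M of STAG2-KD. Whether this gap had a part in the peak numbers was not tested.

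The first question was which STAG1 sites appeared or disappeared. Peaks of the WT list that shared no base with the STAG2-KD list of the set were termed lost, and peaks of the STAG2-KD list that shared none with the WT list were termed gained. In set 1, 4074 WT peaks were lost, 6.42% of the list (95% Wilson interval 6.23% to 6.61%). In the same set 27109 STAG2-KD peaks were gained, 31.7% of the list (31.4% to 32.0%). Set 2 had 13367 lost peaks (13.6%, 13.4% to 13.8%) and 19498 gained peaks (18.6%, 18.4% to 18.9%). These intervals cover counting error only, and peaks of a library are not replicates. Gained peaks thus outnumbered lost peaks 6.65 to 1 in set 1 and 1.46 to 1 in set 2, and both shares differed between the sets by far more than their intervals. The mean over the sets was 25.2% ± 9.24 gained and 10.0% ± 5.06 lost (SD, n = 2).

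**Figure D1:**
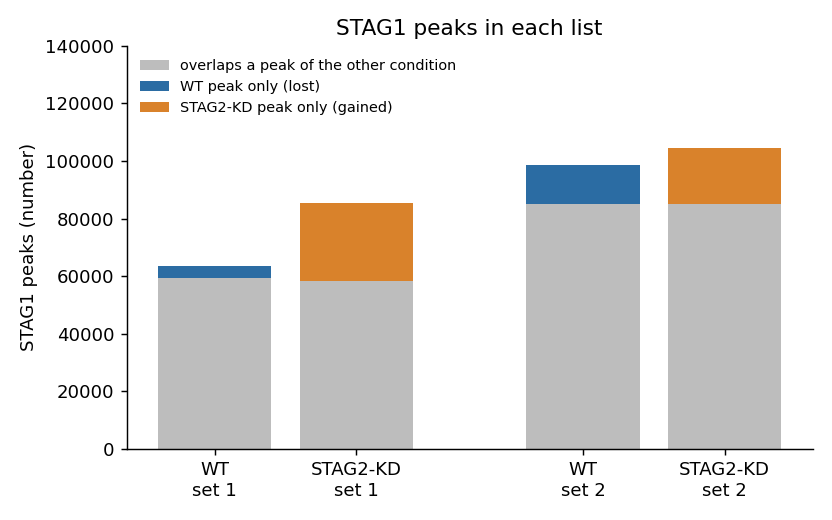
Number of STAG1 peaks in each of the 4 lists, by condition and set. Grey stands for peaks that overlap a peak of the other condition of the set, blue for the 4074 and 13367 lost WT peaks and orange for the 27109 and 19498 gained STAG2-KD peaks; gained peaks are the larger part in both sets.

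This excess is tied to the lengths of the lists. When only the strongest peaks were kept, as many as in the shorter list of each pair, 15.5% of peaks were gained and 13.4% lost in set 1, and 16.1% were gained and 15.7% lost in set 2. Gained peaks then outnumbered lost peaks 1.16 to 1 and 1.02 to 1. Cutting a pair to the same length makes gained and lost peaks nearly equal by construction. These ratios therefore cannot show whether gains prevail. Across the 4 antibodies, the log2 of gained over lost peaks averaged 1.64 for STAG1 and −0.51 for STAG2, CTCF and SMC1A. By antibody it was −1.89 for STAG2, −0.12 for CTCF and 0.48 for SMC1A. SMC1A thus also had more gained than lost peaks, 1.67 to 1 in set 1 and 1.16 to 1 in set 2. Its mean gained share was 29.1%, against 25.2% for STAG1. The difference of 2.15 between STAG1 and the other antibodies did not pass a two-sided exact permutation test over the 8 pairs of lists (p = 0.143, smallest possible 0.0357). It was 0.12 with lists of equal length, which keep gained and lost peaks nearly equal for every antibody.

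Gained sites were weak sites. Each peak was given a percentile by its −log10 q-value within its own list, from 0 for the weakest to 100 for the strongest. Gained peaks had a median percentile of 19.1 in set 1 and 15.8 in set 2, against 65.8 and 59.3 for the STAG2-KD peaks that overlapped a WT peak. Their median fold enrichment over background was 4.42 against 17.2 in set 1 and 2.74 against 6.01 in set 2. They were also narrow, with a median width of 188 bp against 516 bp in set 1 and 221 bp against 650 bp in set 2. Of the gained peaks, 746 (2.75%) lay above the middle of their list in set 1 and 125 (0.641%) in set 2. Lost peaks were weak as well, with median percentiles of 11.1 and 14.5, and 2 and 37 of them lay above the middle of the WT lists.

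**Figure D2:**
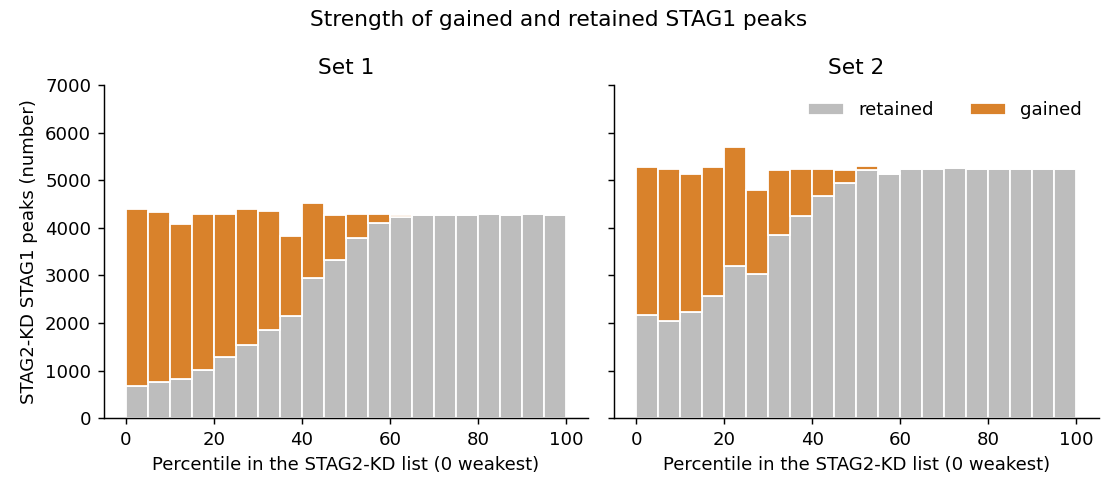
Number of STAG2-KD STAG1 peaks in each step of 5 percentile points of their own list, set 1 on the left and set 2 on the right, stacked as retained (grey) and gained (orange). Gained peaks sit in the weaker part of both lists, with medians of 19.1 and 15.8, and are nearly absent above the middle.

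The sets were then compared with each other at 117507 sites, the union of the 4 lists. All 4 lists had a peak at 54417 of them (46.3%). Only 4591 sites (3.91%) were gained in both sets and 808 (0.688%) were lost in both. Of the 21901 sites gained in set 1, 15318 (69.9%) already had a peak in both the WT and the STAG2-KD list of set 2, 4591 (21.0%) were gained there as well, and 1630 (7.44%) were in neither list. Of the 19364 sites gained in set 2, 14663 (75.7%) were in neither list of set 1 and 80 (0.413%) were in both. Most gained sites of set 1 were therefore present in WT cells of set 2, the deeper set, whose lists reach lower q-values. With lists of equal length within each pair, 937 sites were gained in both sets and 1117 were lost in both.

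Strong sites among those gained in both sets lay in introns of TPTE2, NDC1 and PTPRN2 and in an exon of the pseudogene SPATA31E3P. TPTE2 encodes a phosphatase-like membrane protein, NDC1 a membrane protein of the nuclear pore, and PTPRN2 a receptor-type phosphatase of secretory vesicles. The TPTE2 site (chr13:20034237-20034615) had no WT peak, and its STAG2-KD peaks stood at percentile 57.4 in set 1 and 63.2 in set 2, with fold enrichments of 12.6 and 8.02. The NDC1 site (chr1:54287047-54287431) stood at 54.1 and 55.1, with folds of 9.27 and 4.36. The PTPRN2 site (chr7:157584270-157584788) stood at 53.1 and 52.3, with folds of 10.4 and 5.42. The SPATA31E3P site (chr15:23467026-23467239) stood at 51.5 and 49.2. STAG2 had no WT peak at these 4 sites in set 1, nor at TPTE2 and SPATA31E3P in set 2, but at PTPRN2 it stood at 34.2 in WT and 53.2 in STAG2-KD in set 2 and had a STAG2-KD peak (21.5) in set 1. At NDC1 STAG2 stood at 6.38 and 17.8 in set 2. SMC1A had no peak in any list at TPTE2 and SPATA31E3P. Its only peak at NDC1 was in STAG2-KD of set 2 (6.17), and its only peak at PTPRN2 was in WT of set 2 (16.5). At the TPTE2 site CTCF had percentiles of 17.0 in WT and 40.3 in STAG2-KD in set 1 and 39.0 and 43.96 in set 2, and at the NDC1 site 39.2 and 47.1, then 61.6 and 59.9. These 4 were near the middle of the STAG2-KD lists, so that they were of middling strength, and they were also gained when lists of equal length were compared.

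Sites lost in both sets were fewer than sites gained in both. Their median WT percentiles were 10.8 in set 1 and 27.3 in set 2, beside STAG2-KD percentiles of 14.3 and 26.4 at the sites gained in both. The 5 strongest lost sites had WT percentiles of 38.7 to 43.0 in set 1 and 46.6 to 54.8 in set 2. They lay 33.1 kb from a PTPN1 start (chr20:49093455-49094070), in AP3B1 at a start of the pseudogene ATP6V1G1P6 (chr5:77517902-77518363), in PHF20 beside the start of the small RNA gene RNU6-937P (chr20:34515725-34516254), in a SH3PXD2A intron (chr10:105512496-105512859) and in an ALB exon (chr4:74280723-74280929). PTPN1 is a tyrosine phosphatase, AP3B1 an adaptor subunit of melanosome and lysosome traffic, PHF20 a chromatin reader, SH3PXD2A a scaffold of invasive cell protrusions and ALB serum albumin. At all of these but the PHF20 site, STAG2 had a WT peak in both sets, at percentiles of 38.4 to 77.9, and in set 1 its STAG2-KD peak was absent. In set 2 STAG2 kept a weaker STAG2-KD peak at the SH3PXD2A site (from 56.5 to 16.003) and the ALB site (from 77.9 to 35.4) and had none at the remaining pair. CTCF had a peak in all 4 of its lists at the PTPN1 and SH3PXD2A sites. The PHF20 site had no STAG2 peak in any list. At the other named lost sites STAG1 was absent after knockdown where STAG2 was absent or ranked lower. These sites were picked for the loss of STAG1. Over the whole lists, 32.2% and 22.1% of WT STAG2 peaks had no STAG2-KD peak. SMC1A had no peak in any list at the AP3B1, PHF20 and ALB sites, and CTCF had none at the ALB site.

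The second question was how STAG1 rank moved at sites present in both conditions of a set. Set 1 had 57666 such sites and set 2 had 82142. The median change in percentile, STAG2-KD minus WT, was 8.79 points in set 1 and 1.56 points in set 2, with a mean of 5.18 ± 5.11 (SD, n = 2). At least 10 points higher were 26143 sites (45.3%) in set 1 and 13767 (16.8%) in set 2, and at least 10 points lower were 1468 (2.55%) and 7887 (9.6%). The STAG2 lists of the same cells, called against the same inputs, had median changes of −8.51 and −2.81 points, CTCF had 0.70 and −1.58, and SMC1A had 1.89 and 0.19.

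A percentile also depends on list length, since gained peaks ranked below a shared site raise its percentile. With lists of equal length the median change was 0.13 points in set 1 and 0.07 points in set 2. Ranked among the shared sites alone, 13.5% of sites were at least 10 points higher and 13.9% lower in set 1, and 12.6% were higher and 12.6% lower in set 2. This ranking balances rises and falls by construction, and lists of equal length nearly do. Neither can therefore show whether a direction prevailed. Fold enrichment does not depend on list length. Its log2 ratio, STAG2-KD over WT, had a median of 0.39 in set 1, where 76.4% of shared sites had the larger fold in STAG2-KD. In set 2 the median was 0.04 and the share was 53.4%. Fold of STAG1 at shared sites was thus higher in STAG2-KD in set 1 and nearly level in set 2, with a mean log2 ratio of 0.21 ± 0.25 (SD, n = 2). The other antibodies had medians of −0.40 and −0.14 (STAG2), 0.05 and −0.04 (CTCF), and 0.19 and 0.17 (SMC1A). SMC1A had the larger fold in STAG2-KD at 64.8% and 64.1% of its shared sites. Fold is taken after the scaling to input, which among the STAG1 libraries lowered the WT signal only. Whether this had a part was not tested.

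Rank change was also taken by WT strength. A shared site has a peak in both lists, so weak WT sites have little room to fall, and no order by strength is read from these values. Shared sites with WT percentiles of 0 to 25 had a median change of 22.2 points in set 1 and 13.3 points in set 2. Those from 25 to 50 had 13.97 and 1.92 points, those from 50 to 75 had 9.30 and 1.51, and those from 75 to 100 had 2.47 and 0.47. The median log2 fold ratio was 0.41, 0.37, 0.49 and 0.31 over the same steps in set 1 and 0.21, −0.04, −0.01 and 0.05 in set 2.

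Changes in rank were related between the sets. Across the 54417 sites of all 4 lists, Pearson's r between the change in set 1 and the change in set 2 was 0.39 (Spearman's rho 0.42), and 0.45 (0.44) with ranks among these sites alone. This is a description across sites, which share their libraries and inputs and are not independent. Higher by at least 10 points in both sets were 3317 sites (6.1%), and lower in both were 453 (0.832%). Opposite changes of that size were found at 687 sites that were higher in set 1 and lower in set 2, and at 75 of the reverse kind. With ranks among the sites of all 4 lists, 2086 sites (3.83%) were higher and 2217 (4.07%) lower in both sets, and 248 and 142 moved in opposite directions. This ranking balances rises and falls within each set, so it cannot show an excess of either. Sites moving alike still outnumbered sites moving oppositely.

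**Figure D3:**
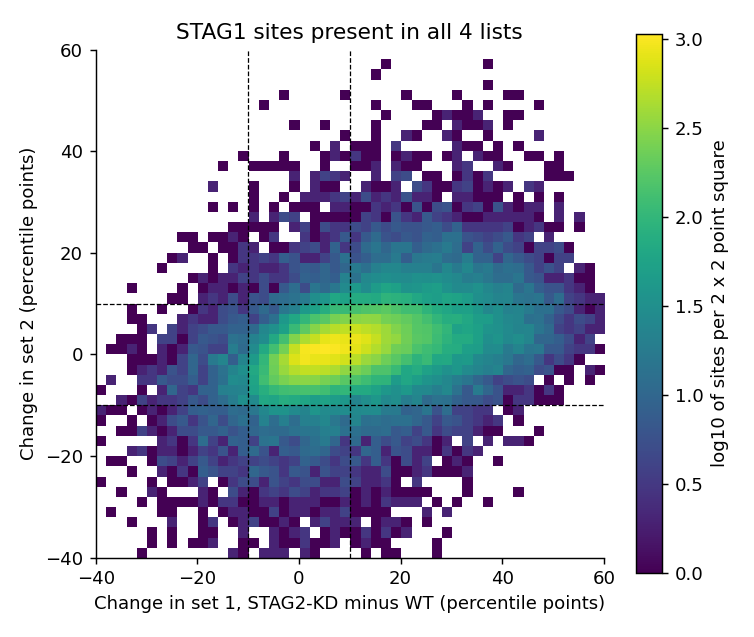
Change in percentile in set 1 (horizontal) and set 2 (vertical) at STAG1 sites present in all 4 lists, coloured by the log10 of the number of sites in each square of 2 by 2 points. Dashed lines mark 10 points; the cloud is shifted to the right, with 3317 sites beyond the upper right lines and 453 beyond the lower left, and 67 of 54417 sites lie outside the axes.

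The 5 sites with the largest rise in percentile common to both sets went from the bottom to the middle of the lists. The site at a SLC12A4 start (chr16:67980421-67980885), a potassium chloride cotransporter gene, had percentiles of 7.55 in WT and 53.9 in STAG2-KD in set 1, and 9.85 and 59.5 in set 2. Its fold enrichment was 4.32 and 10.8 in set 1 and 2.26 and 6.76 in set 2. A rise in both sets is how these 5 sites were picked. At this site STAG2 had a WT peak at percentile 12.5 and no STAG2-KD peak in set 1, but percentiles of 10.8 and 23.6 in set 2.

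The KCNIP1 site with the CTCF core shown above (chr5:169837911-169838688), in a gene for a potassium channel interacting protein, had percentiles of 9.38 and 51.5 in set 1 and 11.6 and 59.4 in set 2, with folds of 3.50 and 9.41, then 2.30 and 6.04. The RASSF8 site (chr12:26154413-26154894), in a gene of the RAS association domain family, had percentiles of 18.5 and 60.6 in set 1 and 2.37 and 52.7 in set 2. At each, STAG1 ranked higher in STAG2-KD in both sets, as the way of picking these sites requires. STAG2 ranked lower in STAG2-KD at both places, with 26.4 in WT and no peak in STAG2-KD at KCNIP1 in set 1 and 44.5 and 37.1 in set 2, and with 45.0 and 40.0, then 61.9 and 53.3, at RASSF8. CTCF at the KCNIP1 site stood at 72.3 and 77.0, then 80.2 and 81.0, close to level. The other members were an intergenic site 17.8 kb from an ICOS start (chr2:204783411-204783982), from 1.89 to 48.6 and from 7.66 to 50.1, and a site in an intron of ENSG00000282924 (chr16:33537994-33538323), from 2.85 to 49.6 and from 3.70 to 45.8. The site near ICOS had no SMC1A peak in any list and no STAG2 peak in WT, and its CTCF peaks were weak (12.3 in WT and 34.8 in STAG2-KD in set 2). Ranked among the sites of all 4 lists, the smaller of the 2 changes was 8.61 to 23.8 points at these 5 sites and kept its direction. With a −log10 q of at least 2 required in every list, none of the 5 was present in all 4 lists any more.

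The 5 largest falls were an intergenic site (chr16:66149245-66149662, 251 kb from a CDH5 start), introns of ATXN7L1 (chr7:105470598-105471421) and BCAS3 (chr17:59402321-59403350), an exon of SPNS1 (chr16:28992656-28993311) and a site 33.9 kb from a KAT6A start (chr8:41943237-41943561). The SPNS1 site, in a lysosomal transporter gene, had the highest WT level of these, with percentiles of 57.5 in WT and 5.56 in STAG2-KD in set 1 and 63.3 and 33.3 in set 2. Its folds were 14.4 and 3.03 in set 1 and 7.34 and 3.02 in set 2, and the STAG2 percentile at the same place went from 57.5 to no peak in set 1 and from 61.4 to 26.1 in set 2. The ATXN7L1 site went from 33.5 to 0.391 in set 1 and from 53.8 to 20.3 in set 2. The BCAS3 site went from 39.0 to 1.99 and from 55.5 to 25.5. STAG2 had a WT peak at all 5 places in both sets, at percentiles of 42.5 to 71.8. In every case its STAG2-KD peak was absent or ranked lower, with 33.1 and 9.51 as the percentiles left in set 1 (ATXN7L1 and BCAS3) and 65.7 as the highest in set 2 (ATXN7L1, from 71.8). STAG2 was thus absent or ranked lower after knockdown at these sites, which were picked for the fall of STAG1. It was lower over the whole lists as well. Of all WT STAG2 peaks, 32.2% in set 1 and 22.1% in set 2 had no STAG2-KD peak. Shared STAG2 sites had median changes of −8.51 and −2.81 points. Ranked among the sites of all 4 lists, the smaller change was −7.84 to −31.4 points at the 5 sites.

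The third question was which partners stood at these sites in WT cells. Sites with a peak of STAG2, CTCF and SMC1A in both WT sets made up 76.5% of the STAG1 sites present in all 4 lists, 44.8% of those ranked higher in both sets, 43.7% of those ranked lower in both, 3.31% of those gained in both and 12.5% of those lost in both. With ranks among the sites of all 4 lists, the shares were 62.6% of sites ranked higher and 69.9% of sites ranked lower in both. STAG2 alone was present in both WT sets at 93.7%, 82.1%, 87.9%, 19.3% and 57.5% of the same groups, and CTCF at 90.01%, 75.4%, 68.0%, 26.0% and 42.3%. After knockdown, 31.8% of the sites gained in both sets had a CTCF peak in both STAG2-KD lists, 34.4% had SMC1A and 10.1% had STAG2. In 305 of them (6.64%) none of the 12 lists of the other antibodies had a peak, against 3.56% of all 117507 sites. Of all sites, 38.7% had peaks of STAG2, CTCF and SMC1A in both WT sets. WT STAG2 was present in both sets at 58.2% of all sites and WT CTCF at 55.6%. Sites gained in both sets thus had WT partners less often than all sites, and strength was not matched here.

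Within each set, a STAG2-KD STAG1 peak was less often gained where WT cells had a STAG2 peak. With a WT STAG2 peak, 16.3% of STAG1 peaks were gained in set 1 and 10.5% in set 2, and without one 79.9% and 63.4% were gained. The difference was 58.3 percentage points ± 7.65 (SD, n = 2), which is larger than the spread between the sets. CTCF gave 15.8% and 9.23% with a WT peak against 71.3% and 47.2% without, and SMC1A gave 17.0% and 11.3% against 64.5% and 52.1%. The WT lists of STAG1 and STAG2 were called against the same input, as their equal background values show, so a site missed in one is not independent of the other.

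Weak peaks had a WT STAG2 peak less often, so the contrast was also made within steps of strength. Among STAG2-KD STAG1 peaks at percentiles 0 to 25, 63.1% of those with a WT STAG2 peak and 90.3% of those without were gained in set 1, and 40.1% and 74.8% in set 2. At percentiles 25 to 50 the shares were 30.7% and 71.9% in set 1 and 13.8% and 44.2% in set 2. At 50 to 75 they were 1.94% and 28.6%, then 0.317% and 7.60%. In these steps and both sets the share was higher where STAG2 had no WT peak. CTCF gave the same order, so it was not particular to STAG2. With and without a WT CTCF peak, 68.3% and 83.7% were gained at percentiles 0 to 25 in set 1, and 42.3% and 63.1% in set 2. At 25 to 50 the CTCF shares were 34.6% and 59.0%, then 13.7% and 30.0%. At 50 to 75 they were 2.59% and 18.5%, then 0.382% and 1.73%. Above percentile 75 there was 1 gained peak in set 1 and none in set 2.

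**Figure D4:**
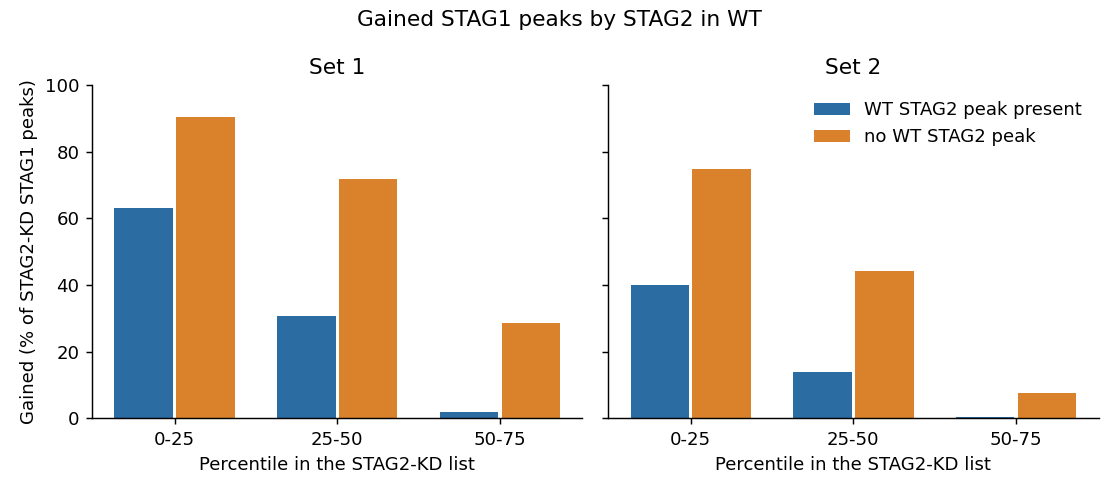
Percent of STAG2-KD STAG1 peaks that were gained, by percentile in the STAG2-KD list, for peaks with (blue) and without (orange) a STAG2 peak in WT cells of the same set. Orange bars are higher in every step of both sets, from 90.3% against 63.1% among the weakest peaks of set 1 to 7.60% against 0.317% in set 2; peaks above percentile 75 are left out, since only 52 and 41 of them had no WT STAG2 peak.

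STAG1 peaks were also split by what happened to STAG2. Where STAG2 lost its peak, 42.0% of STAG1 peaks in set 1 and 39.2% in set 2 were gained, against 10.3% and 8.33% where STAG2 kept its peak. WT STAG1 peaks were themselves lost at 21.1% and 37.5% of places that lost STAG2, against 1.45% and 7.02% of places that kept it. At shared sites that lost STAG2 the median log2 fold ratio of STAG1 was 0.15 in set 1 and −0.04 in set 2, against 0.43 and 0.04 where STAG2 was kept. The median WT percentile was 25.9 and 27.7 at the former and 63.0 and 62.5 at the latter, so the groups differed in strength as well. STAG1 peaks were therefore both gained and lost more often where STAG2 lost its peak.

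STAG1 sites ranked lower in both sets also had lower ranks with the other antibodies. There the median change was −28.0 and −15.3 points for STAG2 in sets 1 and 2, −6.99 and −6.18 for CTCF, and −5.85 and −5.81 for SMC1A. Sites present in all 4 STAG1 lists had median changes of −8.39 and −2.45 with STAG2, of 0.79 and −1.08 with CTCF, and of 1.63 and 0.15 with SMC1A. At STAG1 sites ranked higher in both sets, SMC1A had 4.77 and 2.07, CTCF 2.45 and −0.66, and STAG2 −11.9 and −3.19. With STAG1 ranks among the sites of all 4 lists, the sites ranked higher in both sets had STAG2 medians of −3.41 and 1.02, so that STAG2 lay below its general level under one ranking and above it under the other. The medians of SMC1A (7.06 and 3.24) and CTCF (4.902 and 1.54) were above theirs under both. These medians cover sites with a peak of the other antibody in both conditions, for STAG2 134 and 380 of the 453 sites ranked lower and 1962 and 3038 of the 3317 ranked higher. The antibodies share the inputs and cells of a set, so these are values side by side and not independent comparisons.

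Rank change did not separate sites with and without CTCF in the same way in the sets. Without a WT CTCF peak the median STAG1 change was 4.04 points larger than with one in set 1 and 0.31 points larger in set 2, a mean of 2.18 ± 2.64 (SD, n = 2), within the spread. Ranked among shared sites, the difference was −1.58 and −0.85 points, so its sign turned.

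Promoters showed no difference common to both sets. Within 1 kb of a transcript start, 40.0% of STAG2-KD STAG1 peaks were gained in set 1, against 28.9% elsewhere. In set 2 the shares were 18.3% and 18.7%. The difference of 5.32 percentage points ± 8.15 (SD, n = 2) was within the spread between the sets. Exons, introns and intergenic DNA had gained shares of 27.1%, 29.6% and 28.3% in set 1 and 18.2%, 19.0% and 18.4% in set 2. By chromosome, the gained share ran from 27.95% on X to 37.1% on chromosome 16 in set 1, and from 15.3% on X to 20.1% on chromosome 5 in set 2. X had the lowest gained share and the lowest lost share (3.88% and 10.6%) in both sets.

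Motifs were counted in the 201 bases around summits, on both strands. The CTCF core was in 17.7% of all STAG1 sites and in 2.09% of windows of the same length 5 kb away. It was in 28.5% of sites present in all 4 lists, 18.7% of those ranked higher and 15.9% of those ranked lower in both sets, 9.58% of those gained in both and 10.3% of those lost in both. Within sets, 10.9% of gained and 29.0% of retained STAG2-KD peaks held it in set 1, and 6.51% and 21.1% in set 2. The difference was −16.4 percentage points ± 2.46 (SD, n = 2), larger than the spread. Between gained and retained peaks of like strength it was small. At percentiles 0 to 25, 8.85% of gained and 11.3% of retained peaks held the core in set 1, and 5.97% and 7.71% in set 2. Gained peaks had the lower share at percentiles 25 to 50 as well, with 13.9% against 16.3% and 7.91% against 10.1%.

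The AP-1 element TGANTCA, bound by FOS and JUN proteins, was in 10.4% of all STAG1 sites and 6.10% of windows 5 kb away. It was in 15.3% of sites gained in both sets, 9.53% of those lost in both and 6.99% of those present in all 4 lists. Among peaks at percentiles 0 to 25 it was in 14.5% of gained and 9.03% of retained peaks in set 1, but in 11.96% and 12.2% in set 2. In set 2 it was more frequent in lost peaks (14.7%) than in gained ones (12.2%). Over all strengths it was in 14.5% of gained and 6.99% of retained peaks in set 1, and in 12.2% and 9.09% in set 2, and at percentiles 25 to 50 in 14.5% and 9.75%, then 12.8% and 12.2%. The excess in gained peaks was thus smaller in set 2, and among the weakest peaks of that set there was none. The M-box TCATGTG, an element of MITF, was in 4.204% of sites gained in both sets and 2.82% of those present in all 4 lists, against 2.89% of windows 5 kb away. The interferon element GAAANNGAAA was in 3.55% and 3.01%, against 3.38%. The E-box CACGTG (3.20% and 2.83%), the GC box GGGCGG (12.3% and 11.9%), which Sp1 proteins bind, and the ETS element CCGGAAG (1.85% and 2.00%) differed little between the same groups.

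Gained sites lay about as far from the common sites as those lay from each other. The median distance from a site gained in both sets to the nearest site present in all 4 lists was 12.1 kb, and between neighbouring sites of all 4 lists it was 12.5 kb. A distance of 1 kb or less was found for 4.18% of gained sites and 0.572% of the sites of all 4 lists.

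The last question was what STAG1 did at named promoters. A gene's promoter peak was the strongest STAG1 peak within 1 kb of any of its annotated transcript starts. Of 20090 protein-coding genes, 8663 and 11219 had one in WT and STAG2-KD of set 1, 12728 and 12991 in set 2, and 8304 in all 4 lists. Among those 8304, 520 (6.26%) ranked at least 10 points higher in both sets and 38 (0.458%) lower, and the median change was 10.0 points in set 1 and 0.94 in set 2. At any size, 54.9% of them ranked higher in both sets. A promoter peak was gained in both sets at 282 genes (1.4%).

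Of the interferon receptors and kinases, 4 of 7 had a promoter peak in all 4 lists, and all 4 ranked higher in both sets at any size. Their median changes were 24.0 and 5.62 points. These are too few genes to set against the 54.9% of all genes higher in both. In set 1 all 4 had WT percentiles below 50. Shared STAG1 sites of that strength had median changes of 22.2 points (percentiles 0 to 25) and 13.97 points (25 to 50) in set 1. TYK2, a kinase of the type I receptor, was the only one past 10 points in both. Its promoter peak had percentiles of 7.55 in WT and 44.6 in STAG2-KD in set 1, and 12.3 and 46.0 in set 2, with folds of 4.32 and 7.34, then 2.58 and 3.88. Within each set the STAG2-KD value was above the WT value. IFNAR2, a receptor chain, had percentiles of 1.47 and 30.3 in set 1 and 32.7 and 40.9 in set 2. JAK2 had 38.1 and 57.2, then 64.2 and 67.2, and JAK1 had 43.2 and 53.5, then 63.9 and 66.9. IFNAR1 and IFNGR2 lacked a peak only in WT of set 1, and IFNGR1 had one only in WT of set 2.

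Among 4 interferon transducers, 2 had a promoter peak in all 4 lists and ranked higher in both sets at any size, with median changes of 20.2 and 3.71 points. This is too few genes to set against the 54.9% of all genes, and 0 passed 10 points in both. IRF9, the DNA-binding subunit of the complex that type I interferon activates, had percentiles of 59.0 and 66.3, then 66.1 and 72.7. Its fold enrichment was 16.5 in WT and 16.4 in STAG2-KD in set 1, and 6.43 and 10.5 in set 2. IRF1 had percentiles of 17.9 and 50.9 in set 1 but 62.1 and 62.9 in set 2. STAT2 had no promoter peak in any list, and IRF7 had one only in set 2, at percentiles of 37.2 in WT and 2.27 in STAG2-KD.

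Of the 7 interferon targets, 3 had promoter peaks in all 4 lists, with median changes of 1.24 and 0.09 points. ISG15, a ubiquitin-like protein, had percentiles of 73.5 and 74.8 in set 1 and 82.4 and 82.5 in set 2. CD274, which encodes PD-L1, had 68.4 and 70.1, then 82.0 and 79.9, while its fold was lower in STAG2-KD in both sets (24.4 and 20.2, then 21.1 and 17.1). IFIT1 had 16.9 and 15.98, then 43.8 and 44.6. MX1, OAS1 and IFIT3 lacked a peak only in WT of set 1, and USP18 only in STAG2-KD of set 1.

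**Figure D5:**
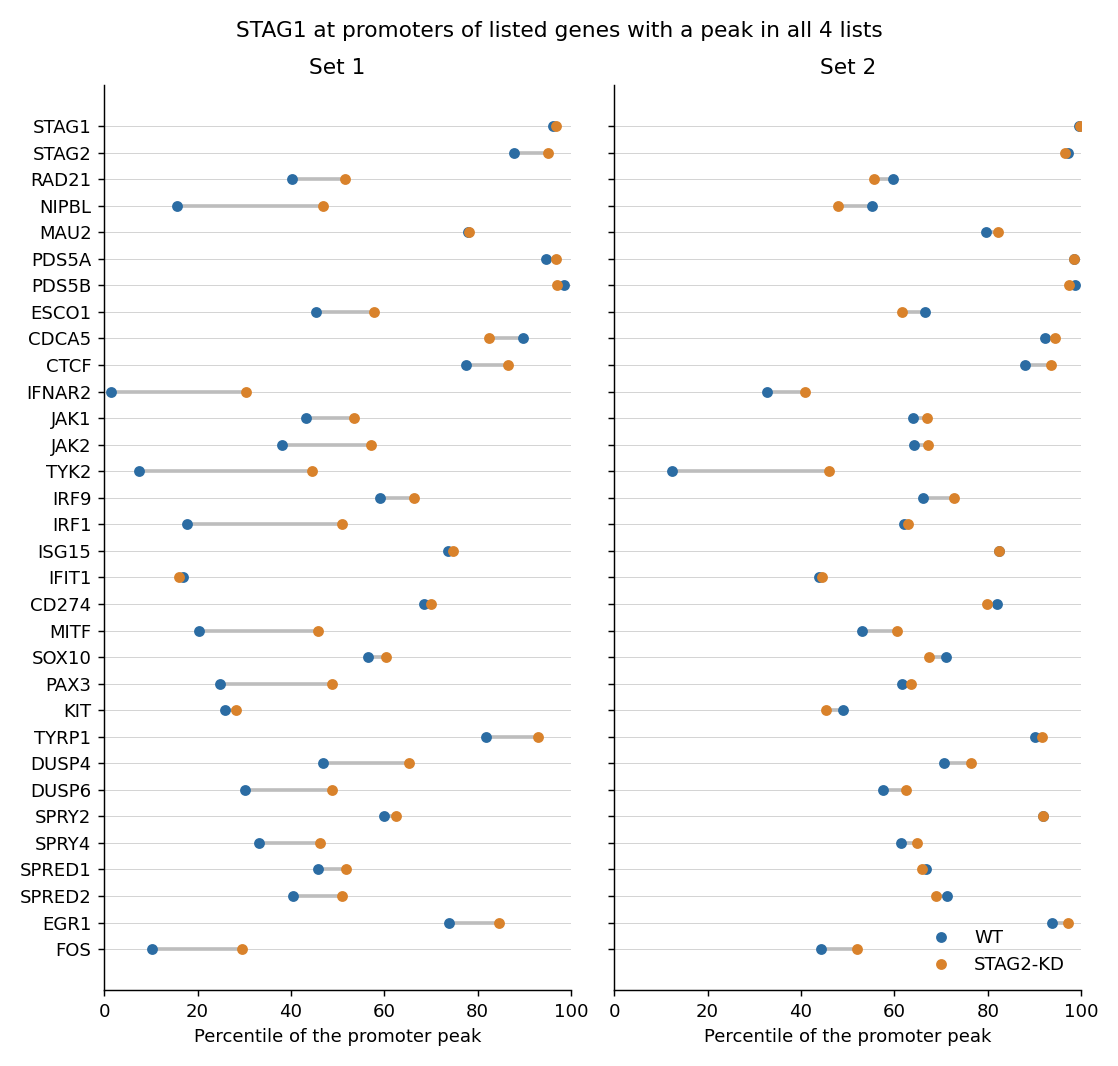
Percentile of the strongest STAG1 promoter peak in WT (blue) and STAG2-KD (orange) for the listed genes with a peak in all 4 lists, set 1 on the left and set 2 on the right. TYK2 moves far to the right in both sets, from 7.55 to 44.6 and from 12.3 to 46.0, whereas strong promoters such as STAG1, PDS5A and PDS5B stay above percentile 94 in every list.

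Promoters of cohesin genes ranged from some of the strongest STAG1 peaks of the lists to no peak. The STAG1 promoter stood at percentiles of 96.2 and 96.8 in set 1 and 99.6 and 99.7 in set 2. PDS5A and PDS5B, which regulate release of cohesin, stood at 94.6 to 98.7 in every list. The STAG2 promoter had 87.8 and 95.1 in set 1 and 97.1 and 96.5 in set 2, and its folds of 47.2 and 65.9, then 35.2 and 34.4, moved in opposite directions. Of the 15 genes of the core, of loading, release and acetylation, and CTCF, 10 had promoter peaks in all 4 lists, and 0 of them were past 10 points in both sets. Among all genes with such peaks 6.26% were higher and 0.458% lower, so 10 genes are too few to compare. CTCF had 77.6 and 86.5, then 88.0 and 93.5, with folds of 27.1 and 42.6, then 15.3 and 25.9, so that STAG1 was stronger there in STAG2-KD in each set. NIPBL, the loader of cohesin, ranked 31.3 points higher in set 1 and lower in set 2 (from 55.2 to 48.0). SMC3 had a weak promoter peak in WT of both sets (1.47 and 15.3) and in neither STAG2-KD list, and SMC1A had none in any list. RAD21 had 40.1 and 51.6, then 59.8 and 55.7. WAPL (9.58 in WT and 28.4 in STAG2-KD) and HDAC8 (55.4 and 49.8) had peaks only in set 2. ESCO2 had one only in STAG2-KD of set 2 (3.71).

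The melanocyte genes had 5 of 9 members with promoter peaks in all 4 lists, with median changes of 11.0 and 1.62 points, close to the 10.0 and 0.94 points of all genes. MITF, the regulator of the lineage, had percentiles of 20.3 and 45.8 in set 1 and 53.0 and 60.5 in set 2. SOX10 had 56.5 and 60.4, then 71.1 and 67.4. TYRP1, a melanin enzyme, had 81.9 and 92.8, then 90.02 and 91.6, and folds of 37.5 and 64.9, then 26.9 and 30.9. MLANA, a melanosome protein, was gained in both sets with weak peaks (1.82 and 17.7). PMEL lacked a peak only in WT of set 1 and TYR had peaks only in set 2, where it stood at 6.66 and 31.7.

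Of the MAPK feedback genes and targets, 8 of 10 had promoter peaks in all 4 lists, 5 ranked higher in both sets at any size, a share near the 54.9% of all genes, and 0 passed 10 points in both. The median changes were 11.9 and 3.42 points. DUSP4 and DUSP6, phosphatases that switch off MAP kinases, had percentiles of 46.9 and 65.3, then 70.7 and 76.4, and of 30.2 and 48.7, then 57.6 and 62.4. EGR1, an immediate early gene, had 73.8 and 84.6, then 93.7 and 97.1, with folds of 27.0 and 42.4, then 23.7 and 28.4. FOS had 10.3 and 29.4, then 44.2 and 52.0. SPRY2 and SPRED1, inhibitors of the pathway, and SPRED2 were higher in set 1 and lower in set 2. Over all the lists given here, 1 gene was at least 10 points higher in both sets, 0 were lower, 1 was gained and 1 was lost in both. Of all genes with a promoter peak in all 4 lists, 6.26% were higher and 0.458% lower. Of all 20090 protein-coding genes, 282 (1.4%) were gained and 41 lost in both. The listed genes are too few to set against these shares.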

How the data were processed

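Peak lists were those deposited by the authors, 1 per library and called against input. The study's methods give bowtie2 alignment to hg19, filtering of duplicates and reads of low quality, and peak calling by MACS2. The submitters' processing notes name Bowtie2 and MACS2 for set 1, and CASAVA 1.4, BWA, SAMtools, Picard, MACS2 and deepTools for set 2. The deposited columns are a score, a fold enrichment at the summit (a ratio to background), and −log10 p-values and −log10 q-values. No calling limit is given in the sources used here. The lowest −log10 q was 2.00 in the set 1 lists of STAG1 and 0.311 in those of set 2, where the lowest −log10 p was 2.01, so list lengths are not comparable between sets.

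Rows on other contigs were left out (3.84% and 3.93% of the WT and STAG2-KD rows in set 1, 0.186% and 0.234% in set 2). Percentiles are mid-ranks of −log10 q within a list; a site is a merged interval and takes its strongest peak, and for another antibody the strongest peak that overlaps it by 1 bp or more. Higher or lower means a change of at least 10 points. This is no test of differential binding. Annotation was GENCODE release 44 lifted to GRCh37, the build of hg19, assigned by midpoint in the order promoter, exon, intron, intergenic. Sequences came from the GRCh37 reference. Depth was solved from the fold and p-value columns, taking 2.7 Gb as the genome size and the narrowest peak (120 bp in set 1, 150 bp in set 2) as the fragment length.

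Replicate number and set are the same, so WT and STAG2-KD libraries of a number share a batch per the labels. With 2 libraries a condition no exact test of WT against STAG2-KD could reach 0.05, and spread is given as SD over sets. Named sites were the 5 largest rises and 5 largest falls by the smaller of the 2 set changes, and the 5 strongest gained and lost in both. 1 gained site and 1 gene of the lists were left out, and listed genes that are not named enter the counts only. Members, gene lists and motifs were chosen with earlier results of these data known. Functions were tested on simulated lists. Python 3.11.15, numpy 2.4.6, pandas 2.3.3, scipy 1.17.1, pysam 0.24.0 and matplotlib 3.10.9 were used.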

Additional observations from a re-analysis of the deposited data

Results flagged for a closer look

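STAG1 and STAG2 went opposite ways under the same contrast in both sets, and this difference between the antibodies was not tested by itself. The log2 ratio of peak number, STAG2-KD over WT, was 0.43 and 0.09 for STAG1 and −0.44 and −0.16 for STAG2, a difference of means of 0.56. The log2 of gained over lost peaks was 2.73 and 0.54 for STAG1 and −2.74 and −1.05 for STAG2, a difference of 3.53. The median percentile change at shared sites was 8.79 and 1.56 points for STAG1 and −8.51 and −2.81 points for STAG2, a difference of 10.8 points. The 3 measures all move with list length and are not independent. With lists of equal length the STAG1 rank change was 0.13 and 0.07 points and its gained peaks outnumbered lost ones 1.16 and 1.02 to 1. Equal length nearly balances gains with losses and rises with falls by construction, so these values cannot show a direction. The antibodies also share the inputs of each set.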

How the results depend on the processing

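Lists of equal length moved the gained share to 15.8%, the difference in gained share without and with WT STAG2 to 48.2 points, the sites ranked higher and lower in both sets to 1005 and 1031, the sites gained in both to 937, and the CTCF difference in rank change to −1.12 points, and they gave 14.5% lost, 0.12 for the log2 contrast with the other antibodies and 0.0977 points of rank change. Ranks among shared sites moved the rank change to 0.0253 points, the sites higher and lower in both to 2086 and 2217, and the CTCF difference to −1.22 points. Equal length nearly equalises gained and lost peaks by construction, and ranks among shared sites balance rises and falls. Neither setting can therefore show a general direction. Percentiles of fold enrichment gave 6136 sites higher and 1221 lower in both sets. A limit of 5 points gave 10803 and 1384, and a limit of 20 points gave 503 and 64. The remaining alternatives, a −log10 q of at least 2 or of at least 5 in every list, an overlap of 50% of the shorter interval, all rows as deposited, a promoter of 2.5 kb and a motif window of 50 bp on each side, left each mean within 1 SD of its value and each count within 1.5 times.

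With the replicate block, that is with sets paired, the log2 ratio of peak numbers was again 0.26, and a two-sided exact sign-flip test gave p = 0.5, the smallest it allows.

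Leaving out a set left single values without an error. They were 0.09 to 0.43 for the log2 ratio of peak numbers, 6.42% to 13.6% lost, 18.6% to 31.7% gained, 1.01 to 3.29 for the log2 contrast with the other antibodies, 1.56 to 8.79 points of rank change, 0.31 to 4.04 points for CTCF, 52.9 to 63.7 points for STAG2, −0.44 to 11.1 points for promoters and −18.1 to −14.6 points for the CTCF core. Of these, the rank change, the gained excess, the promoter difference and the CTCF difference rest mainly on set 1.

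The 5 named rises and 5 named falls had the same sign under each alternative that gave a value. With lists of equal length no named fall kept a peak in all 4 lists, and with a −log10 q of at least 2 such peaks remained at 3 of the 5 falls and none of the rises. The named gained and lost sites stayed so under these limits.

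The settings for sites gained or lost in both sets were chosen after seeing the data. The limits are the 2 libraries per condition and a presence or absence call at thresholds that differ between sets, by which a site just under a threshold counts as absent.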
